A study of Mus musculus with 30 samples.

Results

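Enzymes that add or remove acetyl and methyl groups on histone lysines were followed in cultured and acutely isolated mouse microglia, with and without HMGB1. The members were the protein-coding genes outside chromosomes X and Y whose symbols start with Hdac, Kdm, Kmt, Kat, Setd or Sirt followed by a digit. Of 65 genes with such names, 5 lie on chromosome X or Y and 5 are not protein-coding, which left 55 of the 54532 genes in the count table (22046 of them protein-coding). They comprised 9 zinc-dependent deacetylases (HDACs), 7 sirtuins, 8 lysine acetyltransferases (KATs), 15 demethylases (KDMs) and 16 methyltransferases or related SET-domain proteins (KMTs and SETDs).

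Acetylation of histone lysines is written by acetyltransferases, erased by HDACs and sirtuins and bound by bromodomain proteins, and it marks open, active chromatin. Methylation acts by position. On H3K4 and H3K36 it accompanies transcription, on H3K9 and H3K27 it accompanies silencing, and on H4K20 it is tied to chromatin compaction and the cell cycle. In microglia and macrophages these enzymes, among them the H3K27 demethylase Kdm6b (also called JMJD3), are studied as switches of inflammatory gene programs.

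All mice were C57BL/6 (C57/B6 in the labels). Protocols 1A, 1B and 1C took microglia from mixed glial cultures of neonates aged 0 to 3 days, with 5 mice per cell suspension and distinct litters as replicates. Protocol 1A was cultured for 10 days with 0.5 ng/ml GM-CSF, Protocol 1B for 10 days without GM-CSF and Protocol 1C for 21 days with 0.5 ng/ml GM-CSF. Protocol 2 selected adherent cells of adults aged 6 to 8 weeks, pooled from 3 brains, and its culture of 7 days held M-CSF and GM-CSF, each at 100 ng/ml. Protocol 3 purified cells of adults of the same age with CD11b beads and cultured them for 0 days. Each protocol had 3 untreated libraries (Control) and 3 treated for 4 h with HMGB1, a nuclear protein that acts as a danger signal once released, so 30 libraries in 10 groups were compared. Isolation method, culture time and growth factors changed together between these 3 kinds of preparation, and age changed with them between Protocol 1 and the adult Protocols 2 and 3, so they cannot be told apart.

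Total counts ranged from 14151983 in a Protocol 3 HMGB1 library to 28564757 in a Protocol 1C HMGB1 library. Microglial and macrophage markers were present in every group, but their levels differed. Tmem119, a marker of resident microglia, averaged 60 CPM (counts scaled to library size by TMM) in Protocol 3 Controls. Its mean was 4.7 CPM in Protocol 2 Controls and 1.24 to 1.92 CPM in those of 1A to 1C. Not all 8 markers followed Tmem119. Relative to Protocol 3 Controls, 3 of them were higher and 4 lower in Protocol 2 at an adjusted p below 0.05. For Protocol 1, the mean of 1A, 1B and 1C, these counts were 1 and 6. Itgam, for example, averaged 87.9 CPM in Protocol 3 Controls against 452 CPM in Protocol 2 Controls. The 6 neutrophil markers summed to 344 to 731 CPM in Protocol 3 Controls, to 3.32 to 4.06 CPM in Protocol 2 and to at most 5.38 CPM in the neonatal Controls. The 5 fibroblast markers summed to 123 to 191 CPM in Protocol 2 and to at most 1.55 CPM in Protocol 3, and the 8 proliferation markers ran from 220 to 238 CPM in Protocol 3 to 749 to 867 CPM in Protocol 1B. Most of the Protocol 3 sum was Pcna, at a mean of 186 CPM, while Cdk1 averaged 1.05 CPM there against 33.7 in 1B. In bulk RNA, fewer cells of a type and less RNA per cell cannot be told apart.

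The levels of the 55 members spanned a wide range. Per kb of exon, the most abundant member in Controls of Protocols 1A, 1B, 1C and 2 was Sirt2, a mainly cytoplasmic deacetylase, at 28.3, 35.5, 25 and 24.8 CPM per kb. In Protocol 3 it was Kdm6b at 367 CPM per kb, followed by the acetyltransferase Kat5 at 59.9. The member nearest to 0 in each group of Controls was the H3K9 demethylase Kdm4d, with at most 9 counts in any of the 30 libraries, and it was not tested in any comparison. Hdac11, the class IV deacetylase, was not tested in Protocol 1A, where it had 3 to 10 counts in Control libraries and 0 or 1 count in HMGB1 libraries. It was tested in Protocols 1B and 1C only because its Control libraries had enough counts. This left 53 members tested in Protocol 1A and 54 in the other comparisons. In the text below a member rose, fell or differed where edgeR's quasi-likelihood test gave a Benjamini-Hochberg adjusted p below 0.05 over all genes tested.

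The first question was how the members respond to HMGB1 in neonatal cultures. In Protocol 1A, 14 of 53 members rose and 24 fell, against 29.7% and 31.6% of all genes tested. In Protocol 1B, 15 of 54 rose and 21 fell, against 29.8% and 32% of all genes. In Protocol 1C, 18 rose and 22 fell, against 28.4% and 31.8%. The median log2 fold change of the members was -0.13, -0.14 and -0.16 in 1A, 1B and 1C, and that of all genes -0.04, -0.02 and -0.04. The shares that rose were near the background, and the shares that fell (45.3%, 38.9% and 40.7%) were above it. An absolute log2 fold change of at least 1 was reached by 12, 17 and 16 members. Among them were Hdac5, Kmt5c and Kat6b downward and Kdm6b, Kat2b and Hdac1 upward. The share of all genes that reached this fold change is not given here.

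**Figure D1:**
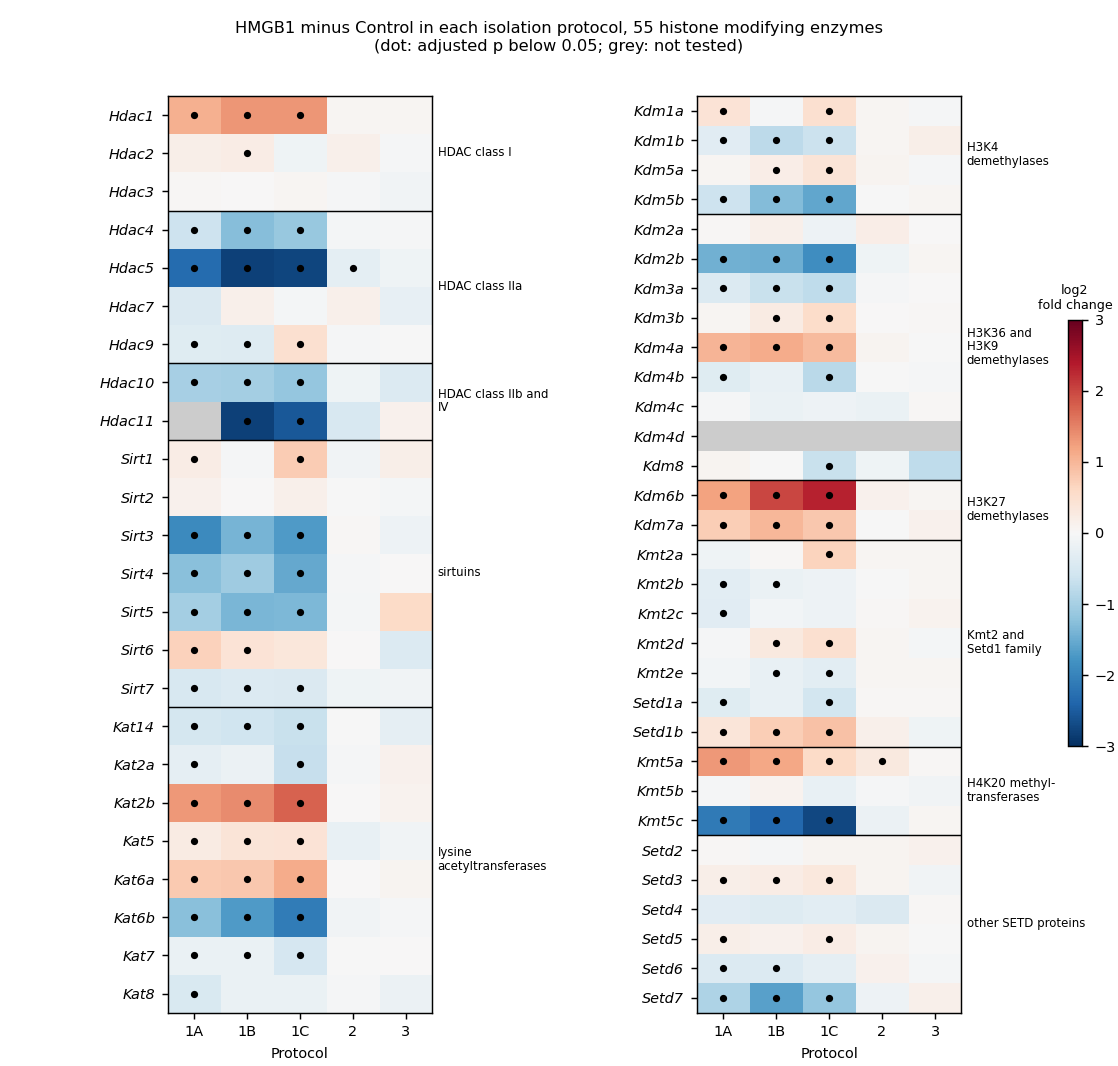
Heat map of the log2 fold change of HMGB1 over Control (colour, from -3 to 3) for the 55 members in rows, ordered by role, and the 5 protocols in columns, each from 3 against 3 libraries. Dots mark members that passed, and they fill much of the columns of Protocols 1A, 1B and 1C but only 2 cells of Protocol 2 and 0 of Protocol 3.

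Of the 53 members tested in all 3 neonatal protocols, 10 rose in each of them, against 22% of 12719 genes tested in all 3. They were Hdac1, Kat2b, Kat5, Kat6a, Kdm4a, Kdm6b, Kdm7a, Setd1b, Kmt5a and Setd3. Another 16 fell in each, against 24% of those genes, namely Hdac4, Hdac5, Hdac10, Sirt3, Sirt4, Sirt5, Sirt7, Kat14, Kat6b, Kat7, Kdm1b, Kdm5b, Kdm2b, Kdm3a, Kmt5c and Setd7. The remaining members passed in at most 2 of the protocols, apart from Hdac9, which passed in all 3 with different signs.

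Among the deacetylases, Hdac1 rose in each neonatal protocol and Hdac4 and Hdac5 fell. Class I HDACs are the catalytic subunits of nuclear corepressor complexes. Hdac1 (chr4:129516104-129542713, minus strand) was at 53.9, 54.1 and 55.1 CPM in Protocol 1A Controls and at 112, 118 and 116 CPM with HMGB1. It rose 2.08-fold in 1A (log2 1.06 ± 0.0603 SE, adjusted p = 2.74e-09), 2.5-fold in 1B and 2.49-fold in 1C, with no overlap between Control and HMGB1 libraries in any of them. Hdac2, its close relative, rose only in 1B (log2 0.22), and Hdac3 had log2 values of 0.04, 0.02 and 0.05 that did not pass.

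Class IIa HDACs shuttle between cytoplasm and nucleus and repress MEF2 target genes. Hdac5 (chr11:102194432-102230166, minus strand) had the lowest log2 fold change of the members tested in 1A and 1C. Its Control libraries were at 117, 120 and 137 CPM in 1A, 156, 160 and 146 in 1B and 99, 114 and 120 in 1C. With HMGB1 they were at 22, 25.7 and 28.9 CPM in 1A, 22.2, 20.5 and 22.6 in 1B and 17.5, 15.7 and 15.9 in 1C. The groups lay far apart, and Hdac5 fell 4.97-fold in 1A (adjusted p = 6.64e-10), 7.03-fold in 1B (3.6e-10) and 6.73-fold in 1C (1.51e-09) by the quasi-likelihood test. Hdac4 fell as well, by 0.62, 1.27 and 1.14 on the log2 scale. Hdac7 did not pass in any of the 3 (log2 -0.44, 0.16 and -0.06). The microRNA gene Mir8101 lies within the span of Hdac5 on the same strand.

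Hdac9 was the class IIa member with unlike signs. Its Control libraries were at 18.6, 24.4 and 22.6 CPM in 1A and its HMGB1 libraries at 15.3, 19.3 and 17.2, so the groups overlapped. In 1B the values were 36.5, 30.6 and 33.9 in Controls and 23.3, 28.1 and 25.1 with HMGB1. In 1C they were 29.9, 32.2 and 37.1 in Controls and 36.4, 46.1 and 54.6 with HMGB1, which overlapped. Hdac9 fell by 0.36 (adjusted p = 0.0193) and 0.39 (0.00392) in 1A and 1B and rose by 0.47 (0.0137) in 1C. A contrast of the response in 1C with the mean of 1A and 1B, added after these values were seen, gave a difference of 0.83 ± 0.267 (SE, log2) with adjusted p = 0.0426 in the fit of 30 libraries. In that contrast 8 of 54 members were higher and 10 lower, against 4.82% and 7.88% of all genes. Without the third HMGB1 library of 1C the adjusted p for Hdac9 was 0.163, and 15 of the other leave-one-out fits also missed the threshold.

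Hdac10, which deacetylates polyamines, fell by 0.99, 1.01 and 1.15 on the log2 scale. Hdac11 had 14, 21 and 26 counts in 1B Control libraries and 3, 0 and 4 with HMGB1, and 11, 25 and 30 counts in 1C Controls against 2, 7 and 0. It is among the members counted as lower in 1B and 1C, but since it was tested only through its Control counts, no test is given for it.

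Sirtuins use NAD+ as a cosubstrate. The 3 mitochondrial members fell in each neonatal protocol. Sirt3, the main mitochondrial deacetylase, fell by 1.9, 1.39 and 1.71 on the log2 scale in 1A, 1B and 1C, Sirt4 by 1.25, 1.07 and 1.53 and the desuccinylase Sirt5 by 1.03, 1.36 and 1.35. Their levels were low: Sirt3 was at 8.93, 5.72 and 6.5 CPM in 1A Controls and at 2.11, 2.29 and 1.27 CPM with HMGB1, without overlap. Sirt7, a nucleolar enzyme, fell by 0.48, 0.42 and 0.43. The protein-coding gene Mafg overlaps Sirt7 on the same strand, as Pet117 does Kat14 and Gm49388 does Setd1a. Sirt6, which acts on H3K9 acetylation, rose in 1A (log2 0.7) and 1B (0.4) but did not pass in 1C (0.33, adjusted p = 0.052). Sirt1, the nuclear deacetylase that acts on p53 and NF-kB, rose in 1A (0.23) and 1C (0.75) and was at -0.03 in 1B. The most abundant member, Sirt2, did not pass in any of the 3. In 1A its libraries did not overlap (log2 0.14, adjusted p = 0.0603 by the quasi-likelihood test). Among the alternatives it passed there only with DESeq2 size factors (0.0298), the DESeq2 Wald test (0.0443) and without the third Control library (0.0325).

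The acetyltransferases divided into rising and falling members, also within close pairs of paralogs. Kat2b (PCAF) was at 34.7, 36 and 37.9 CPM in 1A Controls and at 83.2, 96.4 and 91.7 CPM with HMGB1. It rose 2.46-fold in 1A (adjusted p = 1.96e-09), 2.67-fold in 1B (7.97e-08) and 3.44-fold in 1C (5.49e-08), with no overlap of libraries. Its paralog Kat2a (GCN5) fell in 1A (log2 -0.27) and 1C (-0.69) and was at -0.18 in 1B. Kat6a (MOZ) rose by 0.78, 0.81 and 1.11 on the log2 scale, whereas its paralog Kat6b (MORF) fell by 1.25, 1.71 and 2.1.

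Kat6b was at 15, 16 and 18.1 CPM in 1A Controls and at 7.7, 6.08 and 7.23 with HMGB1. In 1C it went from 20, 19 and 18.7 CPM to 4.45, 4.37 and 4.55 CPM. Of the other acetyltransferases, Kat5 (TIP60) rose in each by 0.24 to 0.42, Kat14 and Kat7 fell in each, and Kat8 (MOF), which acetylates H4K16, fell in 1A alone (log2 -0.46).

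Among the demethylases both members that act on H3K27 rose. Kdm6b (chr11:69398508-69413675, minus strand) was at 13.2, 11.4 and 8.8 CPM in 1A Controls and at 26.4, 26.6 and 25.4 CPM with HMGB1. In 1B it went from 6.22, 6.24 and 8.89 CPM to 20.5, 36 and 28.7, and in 1C from 5.55, 10.3 and 6.7 CPM to 28.8, 37.8 and 46.2. The groups did not overlap, and Kdm6b rose 2.29-fold in 1A (adjusted p = 3.56e-06), 4.04-fold in 1B (1.08e-04) and 4.97-fold in 1C (9.09e-05). Kdm7a, a demethylase of H3K9 and H3K27, rose 1.67-fold, 1.99-fold and 1.76-fold. An antisense gene, Kdm6bos, overlaps Kdm6b, and the strand setting of the counting is not given in the sources used here.

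The demethylases of H3K36 and H3K9 went both ways. Kdm4a (JMJD2A) was at 73, 68.2 and 71 CPM in 1A Controls and at 152, 146 and 139 with HMGB1, and it rose 2.02-fold, 2.15-fold and 1.92-fold in 1A, 1B and 1C. Kdm2b, a partner of Polycomb complexes at CpG islands, went from 43, 40.5 and 41.8 CPM to 16.1, 14.4 and 17.1 in 1A. It fell 2.69-fold, 2.75-fold and 3.65-fold. Kdm3a fell by 0.4, 0.67 and 0.76 on the log2 scale, while its paralog Kdm3b was at 0.06 in 1A and rose in 1B (0.25) and 1C (0.54). Of the H3K4 demethylases, Kdm5b fell by 0.61, 1.31 and 1.57 and Kdm1b (LSD2) by 0.35, 0.78 and 0.64, whereas Kdm1a (LSD1) rose in 1A (0.4) and 1C (0.48) and was at -0.04 in 1B. Kdm5a rose in 1B (0.2) and 1C (0.39). Among the other H3K9 and H3K36 demethylases, Kdm4b fell in 1A (-0.37) and 1C (-0.81), and Kdm8 fell in 1C (-0.67). Kdm2a and Kdm4c did not pass in any of the 3.

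The methyltransferases of H4K20 gave opposite changes. Kmt5a (SET8) places the first methyl group on H4K20. It was at 132, 132 and 141 CPM in 1A Controls and at 371, 309 and 333 CPM with HMGB1, and it rose 2.45-fold in 1A (adjusted p = 3.31e-09), 2.23-fold in 1B (2.85e-07) and 1.48-fold in 1C (3.2e-04). Kmt5c (SUV4-20H2) places further methyl groups at heterochromatin. It was at 56.1, 51.2 and 50.4 CPM in 1A Controls and at 13, 12.3 and 11.7 with HMGB1, and it fell 4.33-fold in 1A (1.08e-10), 5.13-fold in 1B (2.47e-07) and 6.62-fold in 1C (9.67e-06). Kmt5b, its paralog, had log2 values of -0.04, 0.1 and -0.23 that did not pass.

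The Kmt2 and Setd1 family holds the H3K4 methyltransferases of the COMPASS complexes and also Kmt2e (MLL5), which is not a catalytic subunit of them. Setd1b rose in each neonatal protocol (log2 0.36, 0.73 and 0.87). Kmt2a (MLL1) rose in 1C alone (0.67) and Kmt2d in 1B (0.29) and 1C (0.49), whereas Kmt2b fell in 1A (-0.32) and 1B (-0.2), Kmt2e in 1B and 1C, Setd1a in 1A and 1C, and Kmt2c in 1A. Of the other SETD proteins, Setd7, an H3K4 monomethyltransferase with many non-histone targets, fell by 0.92, 1.64 and 1.17. Setd3, an actin histidine methyltransferase, rose by 0.17, 0.22 and 0.32, and Setd2, which trimethylates H3K36, was within 0.09 of 0 in all 3 and did not pass. Setd5 rose in 1A (0.18) and 1C (0.23), Setd6 fell in 1A (-0.4) and 1B (-0.41), and Setd4 did not pass in any of the 3.

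**Figure D2:**
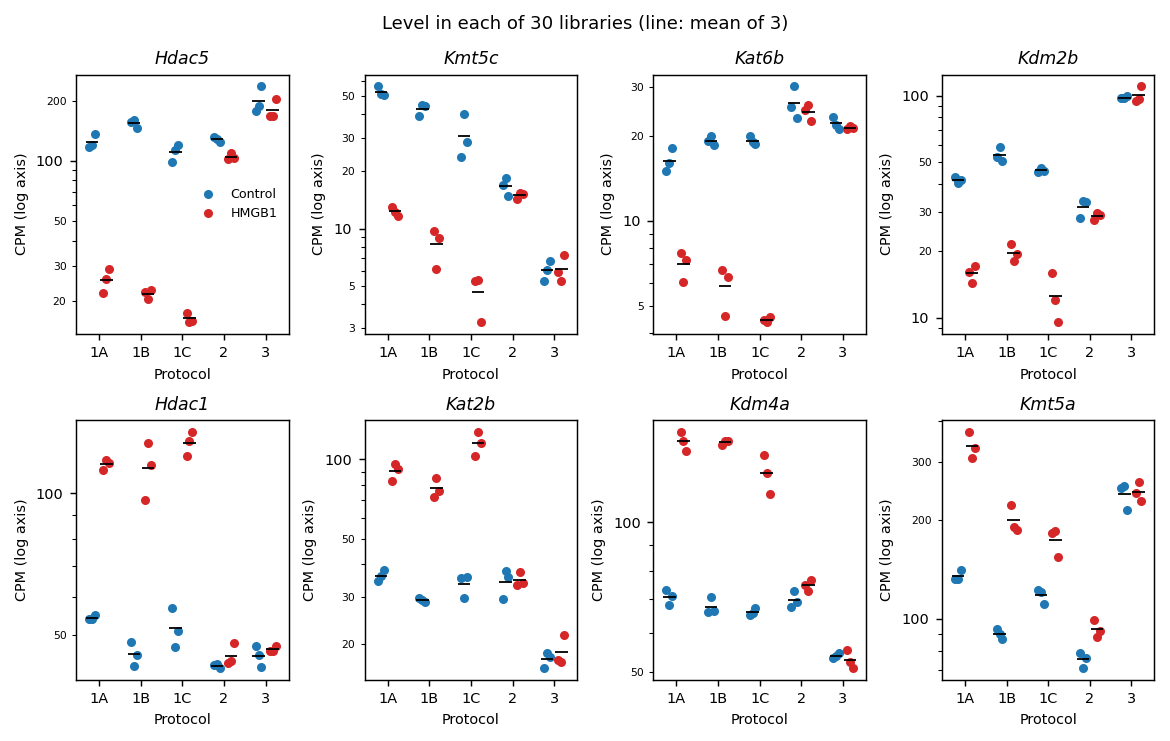
CPM (log axis) of 8 members in each of the 30 libraries, with Control in blue, HMGB1 in red and a line at the mean of 3 libraries, by protocol. In Protocols 1A, 1B and 1C the red and blue points of each member are separate, with Hdac5, Kmt5c, Kat6b and Kdm2b lower and Hdac1, Kat2b, Kdm4a and Kmt5a higher with HMGB1, whereas in Protocol 3 they lie close together.

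Promoters were looked up in RefSeq (GRCm38.p6) for the rising members of the rule for named genes, Hdac1, Kat2b, Kat6a, Kdm4a, Kdm6b and Kmt5a. The table held windows of 250 bases before to 50 after a start site for Kat2b, Kdm4a and Kmt5a, and for 43 of the 55 members in all. They were searched on both strands for the NF-kB consensus, the AP-1 consensus TGANTCA and the CRE consensus TGACGTCA, which answer inflammatory and cAMP signals. Over all 32851 promoters, 8.46% held the NF-kB consensus, 7.81% the AP-1 consensus and 1.79% the CRE consensus. Of the 63 promoters of members, 9 held the first, 7 the second and 0 the third. The 2 windows below each hold 1 AP-1 match, 240 bases before the start site in Kat2b and 190 bases before it in Kdm4a. They are shown because, of the windows found for Kat2b, Kdm4a and Kmt5a, only these held a match. Capitals mark the match. The other Kat2b window and the 3 Kmt5a windows held none of these letters. A match is a description of sequence and not a measured site.

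Kat2b, chr17:53566721-53567020, plus strand: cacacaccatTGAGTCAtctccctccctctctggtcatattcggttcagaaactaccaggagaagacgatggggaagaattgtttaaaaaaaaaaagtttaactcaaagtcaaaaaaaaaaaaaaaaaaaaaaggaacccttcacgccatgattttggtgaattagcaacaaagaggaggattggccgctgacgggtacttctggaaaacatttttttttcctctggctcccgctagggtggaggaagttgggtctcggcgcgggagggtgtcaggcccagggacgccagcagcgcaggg
Kdm4a, chr4:118179994-118180293, minus strand: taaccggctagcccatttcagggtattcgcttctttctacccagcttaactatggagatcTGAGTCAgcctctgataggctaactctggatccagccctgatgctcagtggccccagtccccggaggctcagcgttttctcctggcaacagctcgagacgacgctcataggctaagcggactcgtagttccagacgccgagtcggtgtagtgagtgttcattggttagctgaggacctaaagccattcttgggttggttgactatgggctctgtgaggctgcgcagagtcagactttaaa

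Other genes of the same machinery also moved in the neonatal cultures. Of 29 other histone modifying enzymes, against 28.4% to 29.8% of all genes rising and 31.6% to 32% falling, 10 rose and 13 fell in 1A, 11 and 11 in 1B, and 6 and 15 in 1C. Setdb2, a relative of H3K9 methyltransferases, rose by 3.07, 3.55 and 3.35 on the log2 scale and the H3K36 methyltransferase Nsd3 by 1.38, 1.67 and 1.82, while Setdb1 fell by 0.76, 0.92 and 1.19. Of 30 cofactor subunits of HDAC and COMPASS complexes, 5 rose and 12 fell in 1A, 6 and 11 in 1B, and 4 and 13 in 1C. Sap30, a subunit of the Sin3 complex that carries Hdac1 and Hdac2, rose by 2.41, 2.82 and 2.68, whereas Tbl1xr1, of the corepressor complex that carries Hdac3, fell by 1.42, 1.8 and 1.04. Of 9 acetyl-histone readers, 6 rose and 1 fell in 1A, 6 and 3 in 1B, and 4 and 2 in 1C. Brd2 rose by 0.93, 1.36 and 1.97 and its relative Brd3 fell by 0.7, 0.95 and 0.96. Of the 8 proliferation markers, 5, 7 and 6 fell in 1A, 1B and 1C and 1 rose in each, and their part in the changes of the members was not tested. The 6 endothelial markers summed to 38.5 to 49.2 CPM in 1C Controls and to 179 to 269 CPM with HMGB1. This sum was mostly Flt1, while Cldn5 was at 0 CPM in all libraries of 1B and 1C.

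Adult microglia gave few changes. In Protocol 2, 1 of 54 members rose and 1 fell, against 1.21% and 0.283% of all genes. Kmt5a was at 78.8, 70.9 and 75.8 CPM in Controls and at 99.3, 87.7 and 91.6 with HMGB1. Hdac5 was at 132, 129 and 125 CPM in Controls and at 102, 109 and 104 with HMGB1. The groups did not overlap for either gene. Kmt5a rose by 0.3 ± 0.0657 (SE, log2, adjusted p = 0.0487) and Hdac5 fell by 0.3 (SE 0.0607, adjusted p = 0.0312).

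In this fit without pairing, both calls in Protocol 2 stood close to the threshold. Leaving out 1 library left 0 of the calls for 5 of the libraries and 1 call without the first Control library. With the replicate number as a block, 5 members passed, and the share of all genes that passed in that fit is not given here. Hdac5 (adjusted p = 1.28e-06), Kat5 (log2 -0.22, 0.0451) and Setd4 (-0.43, 0.0333) fell, and Kmt5a (5.16e-06) and the H3K36 demethylase Kdm2a (0.19, 0.0055) rose in that paired fit.

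In Protocol 3, 0 members rose and 0 fell, against 0.123% and 0% of all genes by the quasi-likelihood test. The count was also 0 with the DESeq2 Wald test and with the replicate block, and 1 member, Sirt1, had an unadjusted p under 0.05 (log2 0.18, adjusted p = 0.883). Hdac5 was at 177, 188 and 236 CPM in Protocol 3 Controls and at 167, 168 and 205 with HMGB1, which overlapped. Kdm6b was at 2530, 2640 and 2490 CPM and at 2780, 2710 and 2380 with HMGB1, which overlapped as well.

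The difference between the responses was tested itself. Relative to the mean response of Protocols 1A, 1B and 1C, the response of Protocol 2 was higher in 24 of 54 members and lower in 13, against 22.9% and 20.6% of all genes. The response of Protocol 3 was higher in 23 and lower in 16, against 20.2% and 22.5%. Both differences share the neonatal libraries. The response of Hdac5 in Protocol 2 was higher by 2.33 ± 0.115 (SE, log2, adjusted p = 5.77e-17) and that of Kmt5c by 2.23. The response of Kdm6b was lower by 1.7 (log2 -1.7, adjusted p = 7.39e-06), and the values for Kat2b, Hdac1 and Kdm4a were -1.48, -1.16 and -0.93. In Protocol 3 the differences were 2.47 for Hdac5, 2.43 for Kmt5c, 1.64 for Kat6b, -1.8 for Kdm6b, -1.4 for Kat2b and -1.19 for Hdac1.

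The second question was how the members differ between untreated microglia of the protocols. Against Protocol 3, Controls of Protocol 1 (the mean of 1A, 1B and 1C) had 19 of 54 members higher and 31 lower, against 37.3% and 42.9% of all genes. Controls of Protocol 2 had 18 higher and 30 lower, against 40.1% and 37.2%. The median difference of the members was -0.52 and -0.59 on the log2 scale, and that of all genes -0.12 and 0.08. Both comparisons use the same Protocol 3 libraries.

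**Figure D3:**
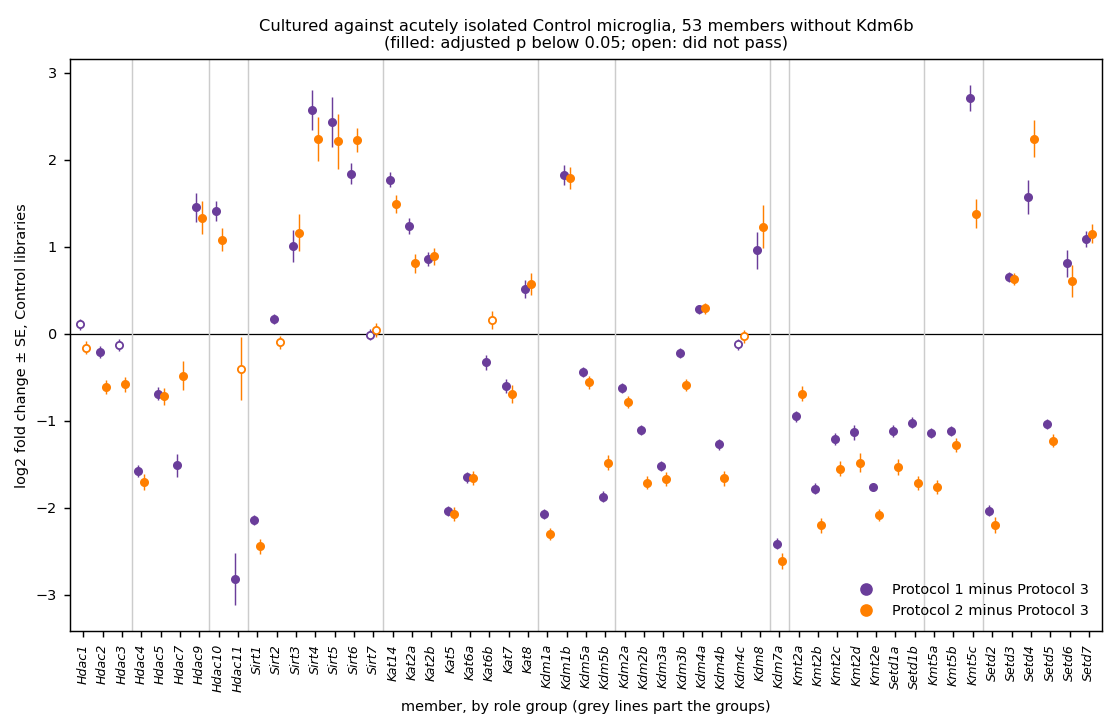
log2 fold change with its SE between Control libraries for 53 members, by role, with Protocol 1 minus Protocol 3 in purple and Protocol 2 minus Protocol 3 in orange. Kmt2a to Kmt2e, Setd1a and Setd1b all lie below 0, and Sirt3 to Sirt6 above it; Kdm6b, at -8.29 and -7.48, is left out for scale.

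Kdm6b gave the widest difference of the members. It was at 2530, 2640 and 2490 CPM in Protocol 3 Controls, at 17.8, 13.1 and 14.6 CPM in Protocol 2 and at 5.55 to 13.2 CPM in the 9 neonatal Control libraries. Its level was 313-fold lower in Protocol 1 (log2 -8.29 ± 0.162 SE, adjusted p = 1.09e-14) and 178-fold lower in Protocol 2 (log2 -7.48, SE 0.253, adjusted p = 5.96e-12). The HMGB1 libraries of the neonatal protocols reached at most 46.2 CPM, so the rise with HMGB1 in culture stayed far under the level of the acutely isolated cells. Across the 6 libraries of Protocol 3, Kdm6b spanned 2380 to 2780 CPM while the summed neutrophil markers spanned 344 to 731 CPM. The 6 endothelial markers summed to 111 to 129 CPM in Protocol 3 Controls against 49 to 51.6 CPM in Protocol 2, and the part of these other cell types in the level of Kdm6b was not tested.

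Several other erasers and writers were also higher in acutely isolated cells. Kdm7a was at 277, 281 and 270 CPM in Protocol 3 Controls, at 44.7, 54.1 and 45.4 in Protocol 2 and at 37.6 to 79.5 in the neonatal ones, a level 5.3-fold lower in Protocol 1 (adjusted p = 1.53e-17) and 6.08-fold lower in Protocol 2 (2.22e-15). Kdm1a, the H3K4 demethylase LSD1, was at 214, 207 and 179 CPM in Protocol 3 and at 40.9 to 59.9 CPM in the neonatal Controls, 4.19-fold lower in Protocol 1 and 4.93-fold lower in Protocol 2. Sirt1 was at 97.8, 100 and 103 CPM against 18.7 to 21 CPM in Protocol 2, and was 4.4-fold lower in Protocol 1 and 5.42-fold lower in Protocol 2. Kat5 was at 120, 120 and 121 CPM against 26.8 to 33.2 CPM in the neonatal Controls.

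All 7 members of the Kmt2 and Setd1 family were lower in both cultures than in Protocol 3. The log2 differences ran from -0.95 for Kmt2a to -1.78 for Kmt2b in Protocol 1 and from -0.69 for Kmt2a to -2.2 for Kmt2b in Protocol 2. Kmt2d, the enhancer-associated member, was at 361, 385 and 391 CPM in Protocol 3 Controls, at 148, 163 and 121 in Protocol 2 and at 140 to 229 in the neonatal Controls. Setd2 was lower by 2.03 and 2.2 in Protocols 1 and 2 as well (log2 -2.03 and -2.2).

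A smaller set of members was higher in culture. Sirt3, Sirt4, Sirt5 and Sirt6 were higher in both, by 1.01 to 2.57 on the log2 scale in Protocol 1 and by 1.16 to 2.24 in Protocol 2. Sirt4 was at 0.922, 0.58 and 1.7 CPM in Protocol 3 Controls, at 5.9, 5.25 and 5.28 in Protocol 2 and at 5.61 to 8.22 in the neonatal Controls. Sirt6 was at 2.77, 3.1 and 3.02 CPM in Protocol 3, at 15.7, 14.4 and 13.8 in Protocol 2 and at 9.89 to 12.3 in the neonatal ones. The groups did not overlap.

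Kmt5c, the H4K20 methyltransferase that fell with HMGB1 in neonatal cells, was at 5.33, 6.05 and 6.77 CPM in Protocol 3 Controls and at 17, 18.4 and 14.9 in Protocol 2. It reached 23.7 to 56.1 CPM in the neonatal Controls, 6.53-fold above Protocol 3 (adjusted p = 4.36e-12). Its relatives went the other way, with Kmt5a at log2 -1.14 and Kmt5b at -1.12 in Protocol 1 minus Protocol 3. Kdm1b, Kat14, Kat2a and Kat2b were higher in Protocols 1 and 2 too. Hdac1 and Sirt7 were near the Protocol 3 level in both cultures and did not pass (log2 0.11 and -0.01 in Protocol 1, -0.16 and 0.04 in Protocol 2). Hdac1 in Protocol 1 passed in 5 of 20 alternatives, with log2 0.23 and adjusted p = 0.00317 when only the groups compared entered the fit.

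**Figure D4:**
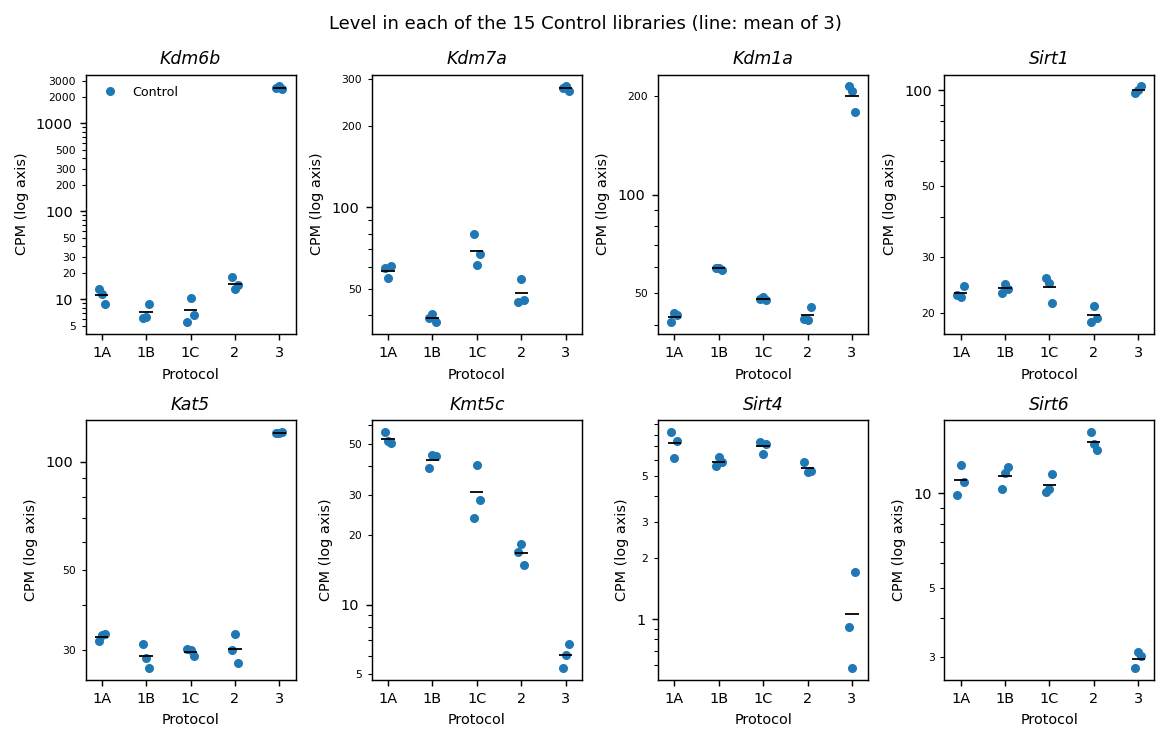
CPM (log axis) of 8 members in the 15 Control libraries by protocol, with a line at the mean of 3 libraries. Kdm6b, Kdm7a, Kdm1a, Sirt1 and Kat5 are highest in Protocol 3, and Kmt5c, Sirt4 and Sirt6 are lowest there.

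Of the genes around the members, 9 of 29 other histone modifying enzymes had more RNA in Protocol 1 and 17 had less, relative to Protocol 3, where 37.3% of all genes were higher and 42.9% lower. In Protocol 2 these counts were 8 and 17, against 40.1% and 37.2% of all genes. The H3K79 methyltransferase Dot1l was at log2 -3.95 and -4.34, the demethylase-like Jmjd1c at -3.85 and -4.22 and the acetyltransferase Crebbp at -2.33 and -2, whereas the H3K27 methyltransferase Ezh1 was at 1.29 and 1.76. Among the cofactors, 10 of 30 were higher and 18 lower in Protocol 1, and 5 and 19 in Protocol 2. Of the 9 acetyl-histone readers, 1 was higher in each and 5 and 6 were lower. Brd2 was lower (log2 -2.52 in Protocol 1) and Brd3 was the one that was higher (1.58).

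The 2 kinds of culture differed less from each other. Controls of Protocol 1 had 24 members higher than Protocol 2 and 8 lower, against 24.6% and 30.7% of all genes, and 3 members had an absolute log2 difference of at least 1. These were Kmt5c (1.32), Hdac11 (-2.42) and Hdac7 (-1.04), the last with overlapping libraries. Hdac11 had at most 30 counts in any neonatal Control library against 51 to 131 in Protocol 2, so no weight is placed on its difference. The share of all genes with such a difference is not given here. Of the 7 members of the Kmt2 and Setd1 family, 6 were higher in Protocol 1 by 0.32 to 0.69, and Kmt2a was lower (-0.26). Setd1b was at 48.9 to 72.5 CPM in the neonatal Controls and at 37.4, 35.3 and 39 CPM in Protocol 2. All 3 class I HDACs and all 3 H4K20 methyltransferases were higher in Protocol 1. Hdac5, which responded to HMGB1 so differently in the protocols, averaged 130 and 129 CPM in untreated cells (log2 0.03, adjusted p = 0.771), and Kat2b, Kat6a and Kdm4a were within 0.03 of 0 as well.

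Within the neonatal protocols the members varied with the culture conditions. Protocol 1B, without GM-CSF, had 9 members higher and 10 lower than Protocol 1A, against 18.2% and 12.6% of all genes. Hdac7 was at 8.96, 7.06 and 7.77 CPM in 1B and at 3.98, 3.21 and 4.24 in 1A (log2 1.09, adjusted p = 9.48e-05). Kdm1a was higher by 0.53, and Kmt5a and Kdm7a were lower by 0.55 (log2 -0.55 each). Of the Kmt2 and Setd1 family, 5 of 7 were lower and 1, Kmt2a, was higher (0.37). With the libraries of 1A and 1B alone in the fit, the split was 9 higher and 18 lower. The shares of all genes in that fit are not given here.

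Protocol 1C, with 21 days of culture, had 6 members higher and 6 lower than Protocol 1A, against 13.1% and 7.91% of all genes. Kdm5b was at 34.3, 32.6 and 31.9 CPM in 1C and at 23.2, 20.5 and 20.1 in 1A (log2 0.64, adjusted p = 2.62e-05). Kmt5c was at 23.7, 40.2 and 28.6 CPM in 1C and at 56.1, 51.2 and 50.4 in 1A (log2 -0.75, adjusted p = 9.17e-04). Hdac9 was higher than in 1A both in 1B (0.66) and in 1C (0.61). Without the first Control library of 1A the adjusted p for Hdac9 was 0.0529 in 1B and 0.102 in 1C. The 1C call was also lost without the third Control library of 1A (0.0589), without the second of 1C (0.052) and without the third of 1C (0.0961). The 5 fibroblast markers summed to 1.52 to 2.59 CPM in 1A Controls, 19.2 to 56.6 in 1B and 32.7 to 65.8 in 1C. Of the 8 astrocyte and oligodendrocyte markers, 6 were higher in 1B and 7 in 1C than in 1A, with summed levels of 74.9 to 82.2 CPM in 1A, 75.3 to 91.1 in 1B and 103 to 177 in 1C. Of the 4 neuron markers tested, 4 were higher in 1B and 2 in 1C, with sums of at most 0.893 CPM in 1A, 10.9 in 1B and 5.46 in 1C. The part of these cells in the differences was not tested. The count of 12 fell to 4 without the first Control library of 1A, to 5 without the second and to 7 without the third Control library of 1C, and with DESeq2 size factors the split was 4 higher and 7 lower.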

How the data were processed

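The deposited values are whole-number read counts for each gene. For alignment the authors used HISAT2 2.0.5, and gene counts came from featureCounts 1.5.0-p3. The genome build is not given in the sources used here, and 98.3% of gene positions equal those of GENCODE M21 (GRCm38). Groups came from sample titles. In R 4.3.3 with edgeR 4.0.16, genes passed filterByExpr, libraries were scaled by TMM and robust quasi-likelihood F tests gave p-values with Benjamini-Hochberg adjustment across all genes tested. Responses were fitted in the 6 libraries of a protocol, Controls in 15 and differences of responses in 30. Standard errors came from the F statistic. Levels are TMM-scaled CPM.

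Every member is named. Library values go mainly to the members with the largest changes among those that passed, did not overlap and reached a mean of 5 CPM, up to 5 in each direction per comparison, and to the 2 of highest level that did not pass. Hdac9, Hdac11 and Kdm4d were chosen after their values were seen. The members and lists were chosen with earlier results of these data known.

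Deviations from the group means in same-numbered Control and HMGB1 libraries correlated at 0.288, 0.185 and 0.18 in Protocol 2 and 0.151, 0.131 and 0.186 in Protocol 3. In Protocol 1B these correlations were 0.096, 0.234 and 0.307. The main counts, the leave-one-out fits and the printed differences of responses did not use this pairing. Values from the replicate block are given beside the responses of Protocols 2 and 3. Replicate libraries of a group differed by more than counting noise, and p-values measure the spread between these libraries. Scripts were tested on simulated data. Alternatives were DESeq2 1.42.0 size factors and Wald test, no filter beyond 1 count, a fold threshold (absolute log2 of 1), the replicate block, other sets of libraries in the fit, Protocol 1A alone as Protocol 1 and leaving out each library. Protein sequences were not used here.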

Additional observations from a re-analysis of the deposited data

Results flagged for a closer look

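Responses to HMGB1 that differed between protocols by a test of the difference itself (edgeR's quasi-likelihood test in the fit of 30 libraries, log2 scale) are listed here as values. In Protocol 2 minus Protocol 1 they were 2.33 for Hdac5, 2.23 for Kmt5c, 1.7 for Sirt3 (adjusted p = 7.98e-07), 1.58 for Kat6b (6.98e-12), -1.7 for Kdm6b, -1.48 for Kat2b, -1.16 for Hdac1 and -0.93 for Kdm4a (2.77e-12). In Protocol 3 minus Protocol 1 they were 2.47 for Hdac5, 2.43 for Kmt5c, 1.64 for Kat6b, 1.61 for Kdm2b (7.7e-13), -1.8 for Kdm6b (1.34e-06), -1.4 for Kat2b, -1.19 for Hdac1 and -1.05 for Kdm4a (2.19e-13). The response of Hdac9 in Protocol 1C minus that in 1A and 1B was 0.83, in a contrast chosen after its values were seen. With 3 libraries per group, single libraries far from the others were not tested for.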

How the results depend on the processing

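With an absolute log2 fold change of at least 1, the members that passed numbered 12, 17 and 16 in the responses of Protocols 1A, 1B and 1C, 0 in Protocol 2, 3 in Control Protocol 1 minus 2, 2 in 1B minus 1A, 1 in 1C minus 1A, 13 and 14 in the differences of responses of Protocols 2 and 3, and 0 in that of 1C. Shares of all genes at this fold threshold and in the alternative fits are not given here. In Protocol 2 the count of 2 members became 5 with the replicate block and 0 with all 30 libraries in 1 fit. Leaving out 1 library gave 0 to 1 members there. It gave 4 to 14 in 1C minus 1A and 11 to 19 in the difference of responses of 1C from 1A and 1B, where the 11 came without the third HMGB1 library of 1C; that count was 18 with all libraries. In the 10 other comparisons every alternative without a fold threshold stayed within 1.5 times the main count. The replicate block gave 38, 37 and 40 members in 1A, 1B and 1C (38, 36 and 40 without it) and 0 in Protocol 3. Pairs did not all correlate above 0.1 in the neonatal protocols. Sirt7 in Control Protocol 1 minus 3 turned from -0.01 to 0.21 (adjusted p = 0.0182 by the quasi-likelihood test) with Protocol 1A alone. Its Control mean was 75.2 CPM in 1A against 56 in 1B and 61.2 in 1C. The cause of the higher level in 1A was not tested. Of the alternative values for single members, 2074 kept their side of the threshold, 73 lost the threshold, 13 gained it and 1 turned and passed. The 2074 include values near 0 that did not pass and changed sign. Hdac5 in Control Protocol 1 minus 2, for example, ran from -0.03 to 0.06. DESeq2 size factors moved the split of the 1C difference from 8 higher and 10 lower to 10 and 5. Members under about 5 CPM, such as Hdac11, Sirt4 and Sirt5, rest on few counts. Hdac11 is the only member at the fold threshold in 1C minus 1A. It is also among those in 1B minus 1A and in Control Protocol 1 minus 2.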
